A study of Mus musculus with 1073 samples.

Results

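The *Myb* and *Myc* gene families were followed across the mouse yolk sac between E7.25 and E10.5. Their members were taken by gene name: *Myb*, *Mybl1*, *Mybl2*, *Myc*, *Mycn* and *Mycl*. All 6 are present among the 15967 genes that passed the authors' filter. They were read in 926 single cells of 13 sorted populations, each cell captured at its own site of a Fluidigm C1 device and sequenced as a library of its own. E7.25 (neural plate) and E7.75 (early headfold) cells came from *Flk1*-GFP/+ embryos and were sorted as GFP+, so they hold every cell type that expresses GFP from the *Flk1* (*Kdr*) locus at that stage. All later cells came from C57BL/6 embryos. Haematopoietic progenitors (HPC, named erythro-myeloid progenitors in the sample labels) were TER119- CDH5+ CD41+ at E8.25 and E8.5, and TER119- CDH5- CD45+ CD41low at E9.5 and E10.5. The same name therefore covers a CDH5+ gate early and a CDH5- gate late. Primitive erythroid cells (EryP) were TER119+ CD41- CDH5- at E8.5 and, in addition, CD45- at E10.5. Megakaryocytes (Mk) were TER119- CDH5- CD41+ at E8.5 and TER119- CDH5- CD45- CD41high at E10.5. Macrophages (Mac, E10.5) were TER119- CDH5- CD41- CD45+, and endothelium (Endo) was TER119- CD41- CDH5+ at E8.5 and also CD45- at E10.5.

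MYB is a DNA-binding transcription factor needed for definitive haematopoiesis, whereas primitive erythrocytes form without it. MYBL2 works with the MuvB core to switch on genes of late G2 and mitosis in most dividing cells, and MYBL1 is best known from male meiosis. MYC, MYCN and MYCL dimerise with MAX at E boxes and raise the transcription of genes for ribosome production, nucleotide and polyamine synthesis and cell growth. *Mycn* is the family member best known from the early embryo and neural tissue, and *Myc* from proliferating blood cells.

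The genes lie on 6 chromosomes of GRCm38 (GENCODE M21). *Myb* (ENSMUSG00000019982) spans chr10:21124935-21160984 on the minus strand and *Mybl1* (ENSMUSG00000025912) chr1:9667415-9700209, also on the minus strand. *Mybl2* (ENSMUSG00000017861) spans chr2:163054687-163084688 on the plus strand. *Myc* (ENSMUSG00000022346) is the shortest, at chr15:61985391-61990374 on the plus strand, with *Mycn* (ENSMUSG00000037169) at chr12:12936093-12941914 on the minus strand and *Mycl* (ENSMUSG00000028654) at chr4:122995652-123002485 on the plus strand. The non-coding antisense gene Gm26577 lies within *Myb* on the opposite strand, and reads from the stretch they share cannot be told apart without strand. The summed length of annotated exons is 2.717 kb for *Myc* and 3.295 kb for *Mycn*, and the 2 were set against each other only per kb.

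RefSeq promoters (GRCm38.p6, 250 bases before to 50 after the start) were given for *Myb*, *Mybl2*, *Mycn* and *Mycl*. Of 4 short motifs searched on both strands, the E2F core TTGGCG was chosen for display after the sequences had been read, since *Myb*, *Mybl2* and *Mycn* all hold it. The 60-base windows around it, 5′ to 3′ on the gene's own strand, are shown with the core in capitals. They cover chr10:21160985-21161044 (minus strand), chr2:163054575-163054634 (plus strand) and chr12:12941977-12942036 (minus strand), all upstream of the annotated gene.
Myb: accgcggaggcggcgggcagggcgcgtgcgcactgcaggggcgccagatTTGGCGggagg
Mybl2: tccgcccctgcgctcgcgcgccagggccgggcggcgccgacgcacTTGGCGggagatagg
Mycn: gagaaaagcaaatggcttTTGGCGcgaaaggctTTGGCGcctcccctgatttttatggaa
The core begins 11 bases upstream of the RefSeq start in *Myb* and 15 bases upstream in *Mybl2*. *Mycn* holds it in 2 copies, 182 and 167 bases upstream. Among 27025 promoters of the same length, 1 for each gene, 7.40% hold TTGGCG. The E box CACGTG, in 7.24% of promoters, is in none of the 4. TTTGAA, a cell cycle homology motif in 18.1% of promoters, is in *Mycn* alone of the 4, and the MYB core AACTG, in 44.8%, is in *Mybl2*, *Mycn* and *Mycl*. These matches describe the letters and say nothing of binding in these cells.

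Cells held from 483830 to 5943204 counts, and population medians lay between 1555237 (E8.5 HPC) and 3536330 (E8.5 Mk). No label names the embryo or pool of a cell, so each population is 1 sample, cells are not replicates, and no test between populations was made. Beside each share of cells with at least 1 count stands its 95% Clopper-Pearson interval; it holds counting error alone, since reads are not molecules. A first flow cell carried the E7.25, E8.25 and all E8.5 libraries and a second the E7.75, E9.5 and all E10.5 libraries. E8.5 to E10.5 differences cannot be told apart from the sequencing run. All 96 index pairs were used in more than 1 lane, and no 2 cells had the same counts. E10.5 EryP and E10.5 Mac shared lane 5 of the second flow cell. Only 3 of 25 captured E10.5 EryP passed the filter, so this population enters no ratio between populations. Marker lists matched the labels for macrophages (4 of 4 genes each in at least 50% of cells), E8.5 EryP (7 of 7 erythroid genes) and both endothelia (7 of 7). E9.5 and E10.5 HPC held 6 of 6 progenitor genes each in at least 50% of cells, and also 2 of 4 macrophage genes. E8.25 and E8.5 HPC held 5 of 6, with *Ptprc* in 1.37% and 24.7% of cells. They also held 4 of 7 erythroid and 7 of 7 endothelial genes. Their summed erythroid markers had medians of 193 and 348 CPM, and highest cells at 40097 and 37017 CPM. The E8.5 Mk population matched its label in part. It held 5 of 6 megakaryocyte genes each in at least 50% of cells, with *Ppbp* at 0, and also 7 of 7 erythroid genes. Its summed erythroid markers had a median of 25668 CPM and its megakaryocyte markers 184 CPM, against 538 and 5352 CPM in E10.5 Mk. In E8.5 EryP these medians were 106183 and 4.13 CPM. Transcripts of both sexes were found in 293 of the 926 cells, among them 59 of 79 E8.5 Endo, 40 of 89 E8.5 HPC and 30 of 66 E8.5 EryP.

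Levels are the authors' CPM, scaled by a size factor per cell, averaged over the cells of a population. Ratios between populations are log2 of mean CPM + 1, which understates the difference of low genes, and a gene was called at a 2-fold difference. Calls were made over 10845 genes with a mean of at least 5 CPM over the 12 populations of 25 cells or more. *Myb*, *Mybl2*, *Myc* and *Mycn* passed this minimum, and *Mybl1* and *Mycl* did not. The minimum was set on the mean over populations, so a member passes through the populations where it is high.

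**Figure D1:**
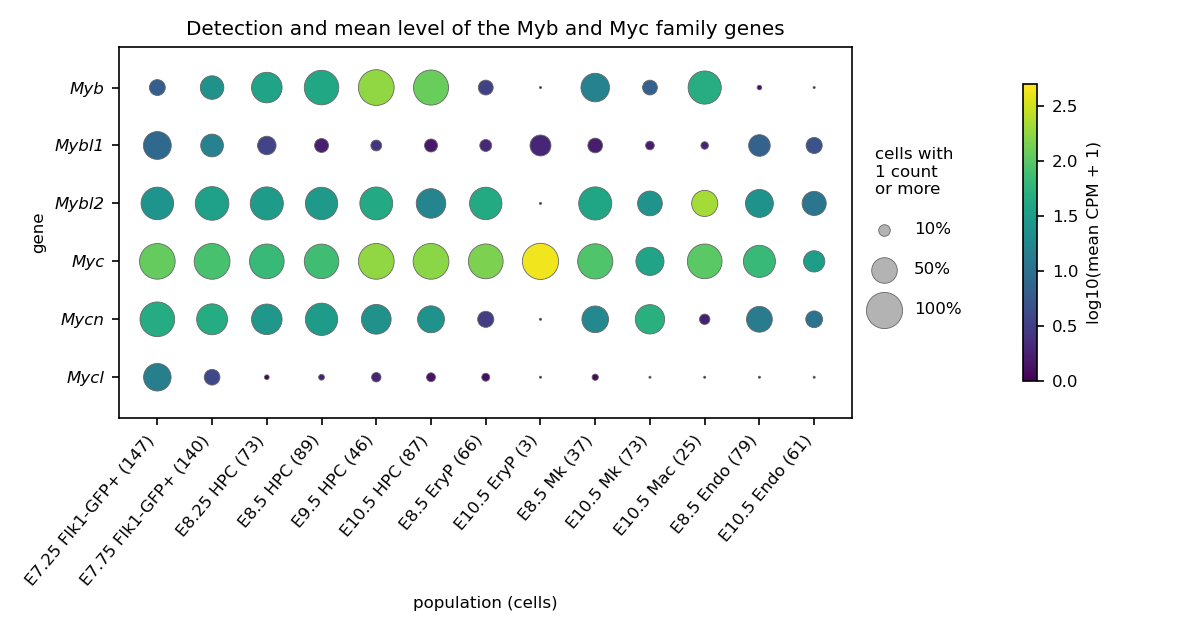
Each dot stands for 1 of the 6 family members (rows) in 1 of the 13 sorted populations (columns, number of cells in brackets); its area gives the percent of cells with 1 count or more and its colour log10 of mean CPM + 1. *Myc* was found in more than 90% of cells of 9 of the 12 populations of 25 cells or more, *Myb* in more than 90% of E8.5, E9.5 and E10.5 HPC, and *Mybl1* and *Mycl* in the highest shares of cells at E7.25.

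*Myb* followed the HPC populations. A count was found in 19.0% (13.0 to 26.3%) of E7.25 cells, 42.1% (33.9 to 50.8%) of E7.75 cells, 71.2% (59.4 to 81.2%) of E8.25 HPC, 91.0% (83.1 to 96.0%) of E8.5 HPC, 97.8% (88.5 to 99.9%) of E9.5 HPC and 94.3% (87.1 to 98.1%) of E10.5 HPC. Mean levels stood in a similar order at 5.21, 21.4, 35.6, 39.9, 179.3 and 120.6 CPM. The difference between E8.25 and E8.5 HPC was seen in the share at 1 count, whose intervals do not overlap, and hardly in the mean. At 10 counts or more the shares were 56.2% and 71.9%. The E9.5 mean owes much to a single cell at 3002 CPM and is 116.6 CPM without it, close to E10.5. In E8.5 HPC the cells ranged from 0 to 260 CPM with a median of 21.1, and in E10.5 HPC from 0 to 626 CPM with a median of 104.7. Individual HPCs thus spanned from no *Myb* to several times the mean at every stage.

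Few primitive erythroid cells held *Myb*. At E8.5, 11 of 66 EryP (16.7%, 8.62 to 27.9%) held a count, their mean over all cells was 2.28 CPM, and only 3 cells reached 10 CPM, the highest at 64.5. HPCs of the same stage and flow cell had a 12.5-fold higher mean on the CPM + 1 scale (log2 ratio 3.64). The difference was larger, at 4.84, without the cells that carried transcripts of both sexes: the 30 such EryP averaged 4.67 CPM and the other 36 averaged 0.289 CPM. Thinned to 800000 counts per cell, the shares were 88.8% in E8.5 HPC and 12.1% in E8.5 EryP. At 10 counts or more they were 71.9% and 4.55%. The 11 positive EryP were erythroid by their markers, with a median summed erythroid level of 85062 CPM against 107320 CPM in the 55 negative ones, and a median depth of 1924285 against 2100091 counts. All 4 macrophage markers were at 0 in every E8.5 EryP. They were also at 0 in every E8.5 Mk, and their sum had a median of 0 CPM in E8.5 HPC. These markers therefore say little of an admixture of E8.5 Mk or HPC. None of the 3 E10.5 EryP held *Myb*, and 1 of the 22 that failed the filter did.

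Endothelium gave the lowest *Myb* among the 12 populations of 25 cells or more. A count was found in 1 of 79 E8.5 Endo (1.27%, 0.0320 to 6.85%) and in 0 of 61 E10.5 Endo, which allows a share of up to 5.87%. At 1 count, the E8.5 Endo interval lies under that of E8.5 EryP. At 10 counts or more the shares were 1.27% in E8.5 Endo and 4.55% in E8.5 EryP. The 36 EryP without transcripts of both sexes averaged 0.289 CPM, and all E8.5 Endo 0.212 CPM. The E10.5 HPC mean was 120.6 CPM against 0 in E10.5 Endo. No fold was taken from this, since the 1 positive E8.5 Endo cell alone held 42 counts. Megakaryocytes differed by stage: 62.2% of E8.5 Mk (mean 14.5 CPM, median 1.40) and 16.4% of E10.5 Mk (mean 5.67 CPM, median 0) were positive. Macrophages at E10.5 had a count in 84.0% of 25 cells (63.9 to 95.5%) with a median of 8.58 CPM, and 4 cells above 100 CPM set their mean of 47.4 CPM. Among all 41 captured macrophages the share was 51.2%.

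**Figure D2:**
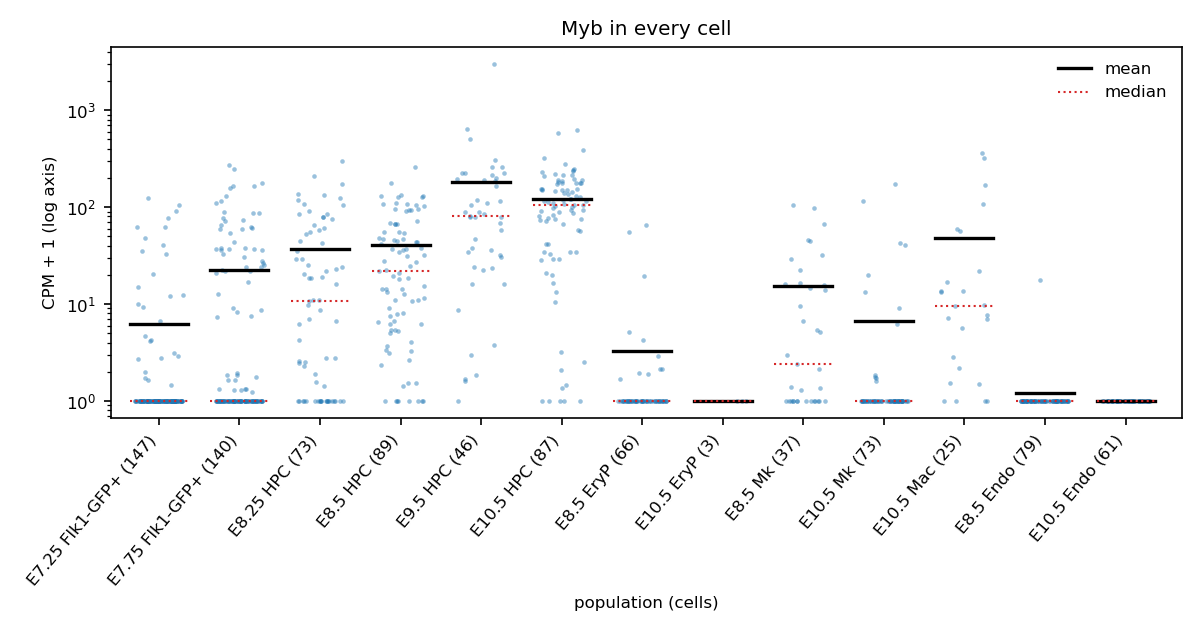
*Myb* level of every cell (dots), as CPM + 1 on a log axis, in the 13 populations, with the mean (black line) and the median (dotted red line). Most E8.25 to E10.5 HPCs lie above the bottom line of cells with no count, on which most EryP, Endo and E10.5 Mk lie, and 11 of 66 E8.5 EryP hold a count, the highest at 64.5 CPM.

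Within the *Flk1*-GFP+ sorts, *Myb* lay in the cells with haemato-endothelial genes. Cells were divided by how many of 6 genes of that programme they held (*Tal1*, *Lmo2*, *Hhex*, *Fli1*, *Gata2* and *Kit*), with 4 as the minimum. At E7.25, 27 of 86 cells with 4 or more (31.4%, 21.8 to 42.3%) held *Myb*, and 1 of 61 other cells did (1.64%, 0.0415 to 8.80%). At E7.75 the counts were 52 of 91 (57.1%, 46.3 to 67.5%) and 7 of 49 (14.3%, 5.94 to 27.2%). Median depths of the 2 kinds of cell were 1804860 and 1848579 counts at E7.25, and 1972765 and 2143729 at E7.75, so the *Myb*-rich cells were not the deeper ones. *Myc* and *Mycn* did not divide this way: at E7.75 *Mycn* was found in 72.5% and 73.5% of the 2 kinds of cell. The E7.75 cells, sequenced in separate lanes, had *Myb* in 45.3% of 53 and 40.2% of 87 cells.

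Within HPCs, *Myb* was read against lineage genes. In E10.5 HPC, 55 of 55 cells with *Gata1*, the erythroid and megakaryocytic regulator, held *Myb* at a mean of 146.4 CPM. Of the 32 cells without *Gata1*, 27 held it, at a mean of 76.3 CPM. The quartiles of these 2 kinds of cell overlap (75.5 to 185 CPM and 7.53 to 122.9 CPM). In E8.5 HPC the corresponding shares were 91.3% of 69 and 90.0% of 20 cells, at means of 41.1 and 36.1 CPM. In E9.5 HPC the order was the other way: 10 of 10 cells with *Gata1* held *Myb* at a median of 72.8 CPM (mean 129.3), and 35 of 36 without it at a median of 86.2 CPM (mean 193.2, which includes the cell at 3002 CPM). The E10.5 gap was therefore not seen at E8.5 or E9.5.

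The list of haematopoietic genes reported as MYB targets moved with *Myb* between HPC and EryP. *Myb* and *Mycn* were the 2 of 4 tested members called higher in E8.5 HPC than in E8.5 EryP, where 21.8% of all genes were called higher, and none was called lower, against 6.96% of all genes. All 4 tested targets were higher in HPC, with a list median of 3.78 on the log2 scale against 0.04 over all genes. *Cd34*, a surface sialomucin of progenitors and endothelium, averaged 394 CPM in HPC and had no count in EryP. *Kit*, the receptor for stem cell factor, averaged 107.5 and 8.08 CPM. *Mpo*, the neutrophil myeloperoxidase, averaged 15.1 and 0.0132 CPM, and *Bcl2*, an inhibitor of apoptosis, 6.50 and 0.343 CPM. *Elane*, the gene of neutrophil elastase, was under the minimum, and *Ctsg* was not in the filtered table. Several of these genes mark progenitors in general, and 3123 of the 10845 genes differed by 2-fold in 1 direction or the other, so the shared direction does not single out *Myb*.

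Against endothelium of the same stage, *Myb* (log2 ratio 5.08) and *Mycn* (1.23) were called higher in E8.5 HPC and no tested member lower. Of all genes, 12% were called higher and 15.8% lower. The MYB target list was split there: *Mpo* was higher in HPC (15.1 against 0.320 CPM) and *Bcl2* lower (6.50 against 89.9 CPM), while *Kit* and *Cd34* lay within 2-fold. Endothelial markers were also present in E8.5 HPC, all 7 in at least 50% of cells, with a summed median of 467 CPM against 2732 CPM in E8.5 Endo. Their part in these ratios was not tested.

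From E7.25 *Flk1*-GFP+ cells to E8.5 HPC, on 1 flow cell, *Myb* was the only tested member called (log2 ratio 2.72, 5.21 against 39.9 CPM). Of all genes 14.8% were called higher and 9.39% lower. *Cd34* (6.22), *Mpo* (3.59) and *Kit* (2.81) were higher with it, 3 of the 4 tested targets, at a list median of 3.20. From E7.75 cells to E10.5 HPC, on the other flow cell, *Myb* (2.44) and *Myc* (1.04) were called higher, where 14.2% of genes were called higher and 13.3% lower. *Mpo*, at 2.52 CPM in the first and 1202 CPM in the second, had the largest ratio of the list (8.42). *Cd34* (5.47) and *Kit* (1.62) were also higher and *Bcl2* lower (-1.13).

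Between E8.5 and E10.5 HPC, across flow cells and across the change of gate, *Myb* (1.57) and *Myc* (1.18) were called higher, among 8.22% of all genes called higher and 12.6% lower. *Mpo* was the single MYB target called (15.1 against 1202 CPM, log2 ratio 6.23). *Elane* was at 0 in E8.5 HPC and averaged 6.66 CPM at E10.5. Among the 89 E8.5 HPC, *Mpo* was found in 38, and *Myb* in 35 of these and in 46 of the other 51. No target was called from E8.5 to E10.5 Endo. In Mk *Mpo* (0 to 1.09 CPM) and *Bcl2* (0.0388 to 1.33 CPM) were called higher while *Myb* was lower, each found in under 10% of the cells of either stage.

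The MYB cofactors lay within 2-fold in the HPC comparisons. In Endo 1 of 5 was called lower, where 17.2% of all genes were, so this count is near the share of all genes. In Mk 2 of 5 were lower and 1 higher, against 12.6% and 15.2% of all genes. In the HPC comparisons 8.22 to 21.8% of all genes were called higher and 6.96 to 15.8% lower. Of the 5 tested (*Crebbp* and *Ep300*, which encode histone acetyltransferases, *Mybbp1a*, *Men1* and *Kmt2a*), none was called in any of the 5 comparisons of HPC. *Mybbp1a*, whose product binds MYB and acts in the nucleolus, was lower in E10.5 than E8.5 Endo (39.4 against 121.4 CPM). In Mk from E8.5 to E10.5, *Crebbp* (485 to 186 CPM) and *Men1*, the gene of the scaffold protein menin (44.8 to 19.3 CPM), were lower and *Kmt2a*, a histone methyltransferase gene, higher (32.4 to 68.4 CPM). *Cebpb* was under the minimum.

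*Myc* was the most widely expressed member. A count was found in 97.3% of E7.25, 97.9% of E7.75, 91.8% of E8.25 HPC, 91.0% of E8.5 HPC, 97.8% of E9.5 HPC and 97.7% of E10.5 HPC cells. Means over these populations were 113.2, 81.3, 65.4, 73.8, 177.4 and 168.3 CPM, and medians 88.3, 57.3, 34.8, 44.9, 124.9 and 110.1 CPM. The level was thus lowest in HPCs at E8.25 and E8.5 and highest at E9.5 and E10.5. The quartiles of E8.5 HPC (6.53 to 111.9 CPM) and E10.5 HPC (53.7 to 233 CPM) still overlap. Every pair of neighbours in the order of the 12 means overlapped in its quartiles, for *Myc* as for the other members except a single break for *Myb*, between E10.5 HPC and E10.5 Mac.

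EryP held *Myc*, with little *Myb* or *Mycn*. At E8.5, 61 of 66 EryP (92.4%, 83.2 to 97.5%) held *Myc*, with a mean of 145.8 CPM, a median of 140.2 and a highest cell at 457. At least 100 CPM was reached by 41 of 66 EryP and by 25 of 89 E8.5 HPC. The ratio of the means, -0.97 for HPC over EryP, fell just short of the 2-fold call, and was -1.03 without the highest cell of each population. *Mycn* was at 2.00 CPM in EryP, with a count in 19.7% (10.9 to 31.3%), and at 29.1 CPM in HPC, 10.0-fold higher (log2 ratio 3.33). The 3 E10.5 EryP held *Myc* at 1.49, 401 and 919 CPM and no *Mycn*. Of the 22 E10.5 EryP that failed the filter, 11 held *Myc* and 0 held *Mycn*.

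*Mycn* had its highest share at E7.25, and its median was highest in the *Flk1*-GFP+ cells of both stages. It was found in 91.8% (86.2 to 95.7%) of E7.25 cells at a median of 26.3 CPM and in 72.9% (64.7 to 80.0%) of E7.75 cells at a median of 16.9 CPM. In HPCs the shares were 71.2%, 79.8%, 67.4% and 55.2% from E8.25 to E10.5, and the medians 9.78, 9.88, 0.711 and 0.564 CPM. Means were closer to each other, at 45.3, 44.6, 25.8, 29.1, 21.5 and 22.5 CPM from E7.25 to E10.5 HPC. Late HPCs therefore held *Mycn* in fewer cells, some of which were still high (up to 195 CPM at E10.5). Macrophages had it in 2 of 25 cells (8.00%, 0.984 to 26.0%).

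**Figure D3:**
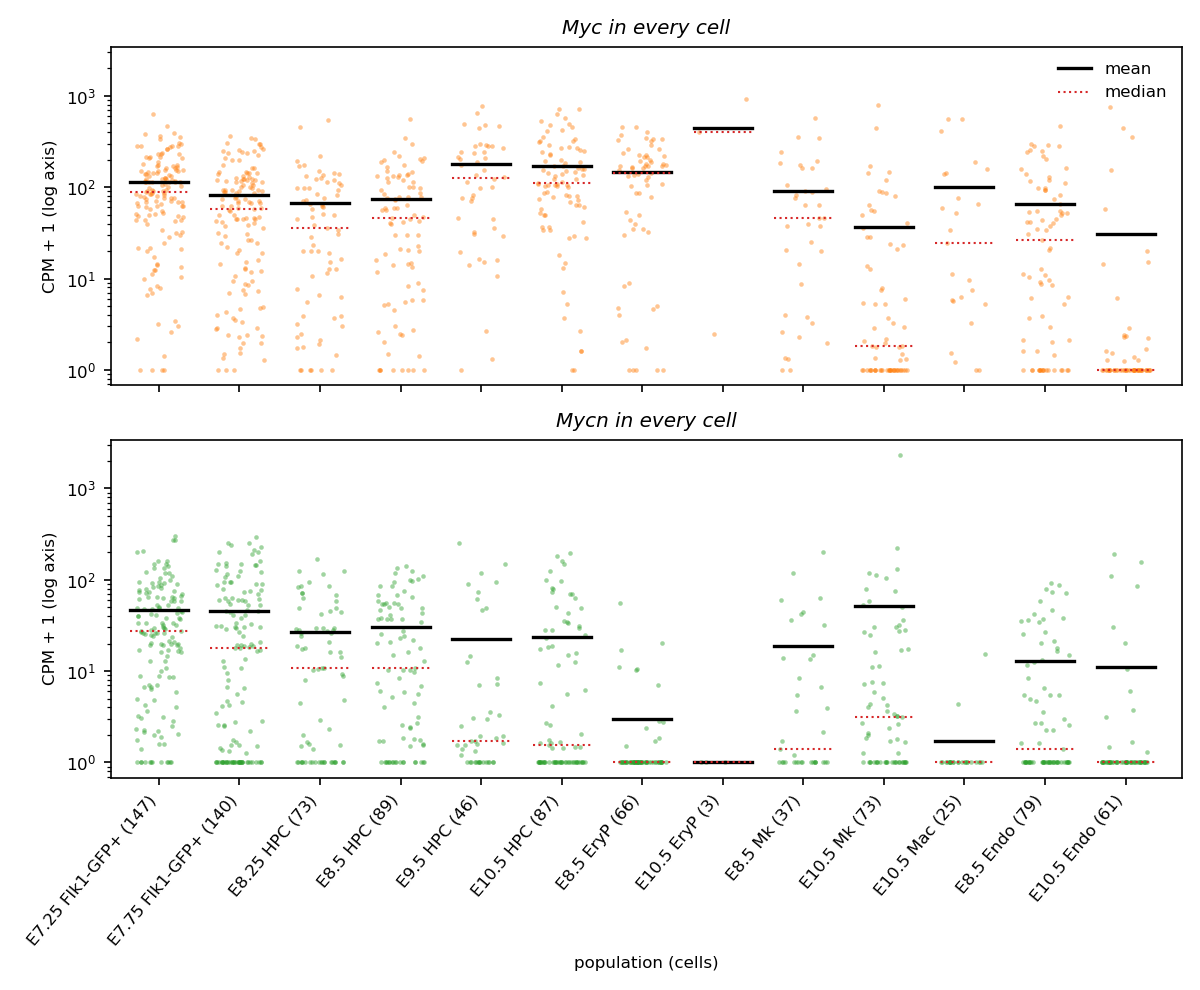
*Myc* (upper panel) and *Mycn* (lower panel) levels of every cell (dots), as CPM + 1 on a log axis, in the 13 populations, with means (black lines) and medians (dotted red lines). *Mycn* is spread over most cells at E7.25 (median 26.3 CPM) and lies at or near 0 in most E8.5 EryP, E10.5 Mac and E10.5 Endo, whereas *Myc* stays above 0 in most cells outside E10.5 Endo.

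Set against each other per kb of exon, *Myc* exceeded *Mycn* in 11 of the 12 populations of 25 cells or more. As the log2 ratio of mean levels, *Myc* over *Mycn* gave 1.58 in E7.25 and 1.13 in E7.75 cells, and 1.59 in E8.25 as in E8.5 HPC. E9.5 HPC had a ratio of 3.27 and E10.5 HPC of 3.13. It was 5.89 in E8.5 EryP and 6.17 in E10.5 Mac. The ratio hardly differed between E7.25 cells and early HPC: within 1 flow cell it differed by 0.01 between E7.25 cells and both E8.25 and E8.5 HPC, with *Myc* and *Mycn* each lower in the HPCs by a similar amount (*Myc* -0.78 and -0.61, *Mycn* -0.79 and -0.62). It was larger in late HPC: within the other flow cell it was higher by 2.14 at E9.5 and 2.00 at E10.5 than in E7.75 cells. There *Myc* was higher (1.12 and 1.04) and *Mycn* lower (-1.02 and -0.96). The step between E8.5 and E10.5 HPC, 1.53, falls between flow cells and came mostly from *Myc* (1.18) and less from *Mycn* (-0.36).

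The E7.75 value depended on the sequencing lane. The 53 cells of lane 7 had *Myc* at 102.995 and *Mycn* at 30.4 CPM, and the 87 cells of lane 8 had 68.1 and 53.3 CPM. The log2 ratio per kb was 2.01 with lane 7 alone. The gap to E9.5 and E10.5 HPC within this flow cell is smaller against that lane. The E7.25 lanes were alike, at 107.3 and 119.1 CPM of *Myc* and 42.6 and 48.0 CPM of *Mycn*.

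Most early cells carried both genes. At E7.25, 89.1% (82.9 to 93.6%) of cells had a count of *Myc* and of *Mycn*, and at E7.75 72.1%. In HPCs the shares with both were 65.8%, 73.0%, 65.2% and 55.2% from E8.25 to E10.5, and those with *Myc* alone 26.0%, 18.0%, 32.6% and 42.5%. No E10.5 HPC had *Mycn* alone. In E8.5 EryP 74.2% had *Myc* alone, as did 22 of 25 macrophages. Counted cell by cell, *Myc* was above *Mycn* per kb in 82.3% of E7.25 and 71.4% of E7.75 cells, in 74.0% and 68.5% of E8.25 and E8.5 HPC, and in 89.1% and 88.5% of E9.5 and E10.5 HPC.

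**Figure D4:**
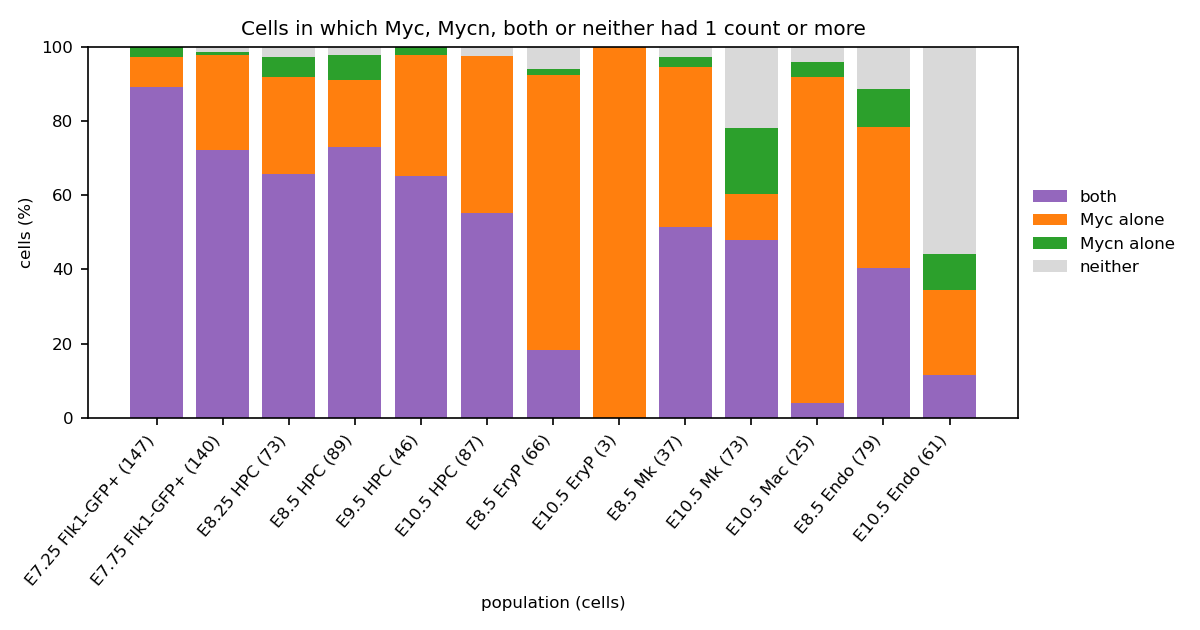
Percent of cells with a count of both *Myc* and *Mycn*, of 1 alone or of neither, in each population. Cells with both make up 89.1% at E7.25 and 55.2% in E10.5 HPC, and cells with *Myc* alone 74.2% of E8.5 EryP.

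Within E8.5 HPC, *Mycn* varied with *Csf1r*, the gene of the macrophage growth factor receptor. Of 35 cells with a count of *Csf1r*, 32 held *Mycn* (91.4%, 76.9 to 98.2%) at a mean of 44.6 CPM. Of the 54 others, 39 did (72.2%, 58.4 to 83.5%), at 19.0 CPM. *Myb* (43.9 and 37.4 CPM) and *Myc* (84.3 and 66.9 CPM) were closer between the 2 kinds of cell. At E10.5 the difference in *Mycn* was not seen (22.7 and 22.0 CPM), and the intervals at E8.5 overlap. It was not particular to *Csf1r*: in E8.5 HPC *Mycn* averaged 38.7 CPM with *Mpo* and 21.9 CPM without it. With and without *Gata1* it averaged 24.5 and 44.9 CPM, at like shares of cells (79.7% and 80.0%).

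Endothelium and megakaryocytes had less *Myc* at E10.5 than at E8.5, the opposite of HPC. In Endo, 78.5% of E8.5 cells (mean 64.9 CPM, median 25.1) and 34.4% of E10.5 cells (mean 29.9, median 0) held *Myc*. Other genes were also found in fewer E10.5 Endo. The mean share of cells was 94.1% at E8.5 and 68.2% at E10.5 for S phase genes. For MYC turnover genes it was 87.1% and 61.5%, but for endothelial markers 100% and 98.8%. *Myc* (-1.09) and *Mybl2* (-1.01) were the 2 of 4 tested members called lower there and none was called higher, with 17.2% of all genes called in each direction. In Mk, 94.6% of E8.5 cells (mean 90.4 CPM, median 44.9) and 60.3% of E10.5 cells (mean 36.0, median 0.843) held *Myc*. *Myc* (-1.30) and *Myb* (-1.21) were called lower and *Mycn* (1.45) higher, among 12.6% and 15.2% of all genes. The *Mycn* call rests on 1 E10.5 Mk at 2323 CPM: without the highest cell of each population the ratio was 0.53. That cell had a large scaling factor, and its *Mycn* was 841 CPM when scaled by its own total. Its removal also turned the *Myc* to *Mycn* ratio of E10.5 Mk from -0.19 to 1.20. Summed erythroid markers, at a median of 25668 CPM in E8.5 Mk and 538 CPM in E10.5 Mk, move with the megakaryocyte comparison, and their part in it was not tested.

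Partners of MYC were read next. Of 10 listed genes of the MAX and MLX network, 9 are in the filtered table and 7 were tested. Over the comparisons, 8.22 to 21.8% of all genes were called higher and 6.96 to 17.2% lower. *Mxd4*, which encodes a MAX partner that represses transcription, was higher in E8.5 HPC than EryP (7.90 against 0.151 CPM), the only call of the list there. Against Endo, *Mxi1*, another such repressor gene (9.5 against 3.57 CPM), and *Max*, the common partner (17.0 against 7.65 CPM), were higher in HPC. *Mxd1*, a repressor gene tied to differentiation, was higher in E8.5 HPC than at E7.25 (9.20 against 3.69 CPM), as was *Mxd4*, and higher in E10.5 HPC than at E7.75 (17.7 against 6.25 CPM). No partner was called between E8.5 and E10.5 HPC. E10.5 Endo, where *Myc* was low, had 4 of 7 partners higher than E8.5 Endo, led by *Mxd4* (66.1 against 10.8 CPM) and *Mxi1* (13.2 against 3.57 CPM), and *Mxd1* lower (0.382 against 13.1 CPM). The list median there was 1.03, against -0.01 over all genes, of which 17.2% were called in each direction. E10.5 Mk had more *Mxd1* (71.0 against 19.5 CPM) and *Mxi1* (25.9 against 8.48 CPM) than E8.5 Mk, and less *Mlxip*, the gene of an MLX partner (3.43 against 11.2 CPM).

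Genes for the turnover of MYC protein were mostly within 2-fold. Of the 6 tested, *Skp2*, which encodes an F-box protein of a ubiquitin ligase, was higher in E8.5 HPC than EryP (94.5 against 40.9 CPM) and lower in E10.5 than E8.5 Mk (39.2 against 86.5 CPM). *Usp28*, the gene of a deubiquitinase, was lower in E10.5 Mk (3.68 against 26.0 CPM). No other comparison gave a call. Of all genes, 21.8% were called higher in E8.5 HPC than EryP and 12.6% lower in E10.5 than E8.5 Mk.

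The 18 growth genes reported as MYC targets were lower where *Myc* was lower in Endo and Mk, and not higher where it was higher in HPC. In E10.5 against E8.5 Endo, 8 of 18 were lower and none higher, where 17.2% of all genes were called in each direction, at a list median of -0.82 against -0.01 over all genes: the transferrin receptor gene *Tfrc* (11.7 against 63.9 CPM), the nucleolar genes *Npm1* (586 against 1818 CPM) and *Ncl* (606 against 1616 CPM), and *Nop58*, for a protein of box C/D ribonucleoproteins (120.9 against 345.7 CPM), were the largest. In Mk 4 of 18 were lower, against 12.6% of all genes: *Npm1*, *Ncl*, *Tfrc* and *Wdr12*, the last being a ribosome biogenesis gene (median -0.42). In HPC from E8.5 to E10.5, however, where *Myc* was more than 2-fold higher, 0 of 18 were called and the list median was -0.06, against -0.09 over all genes. From E7.75 to E10.5 HPC *Myc* was higher as well and 2 of 18 were lower, a share no larger than the 13.3% of all genes called lower there: *Odc1*, of polyamine synthesis (292 to 70.5 CPM), and *Rrs1*, of ribosome assembly (35.5 to 16.1 CPM).

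E8.5 EryP, with the higher *Myc*, had a higher summed level of the 18 genes (median 19916 CPM over cells) than E8.5 HPC (14338 CPM), but only *Tfrc* passed 2-fold (1765 against 199 CPM), and *Tfrc* also serves iron uptake for haemoglobin. E8.5 Endo had the low sum of 7616 CPM, and 6 of 18 genes were higher in HPC, where 12% of all genes were, led by *Wdr12* (289 against 79.6 CPM), *Tfrc* (199 against 63.9 CPM), the RNA polymerase I subunit gene *Polr1b* (118.9 against 41.2 CPM) and the spermidine synthase gene *Srm* (109.8 against 47.2 CPM). *Myc* itself was alike in the 2 populations (73.8 and 64.9 CPM), and *Mycn* was 29.1 against 11.9 CPM. None of the 18 was called between E7.25 cells and E8.5 HPC.

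**Figure D5:**
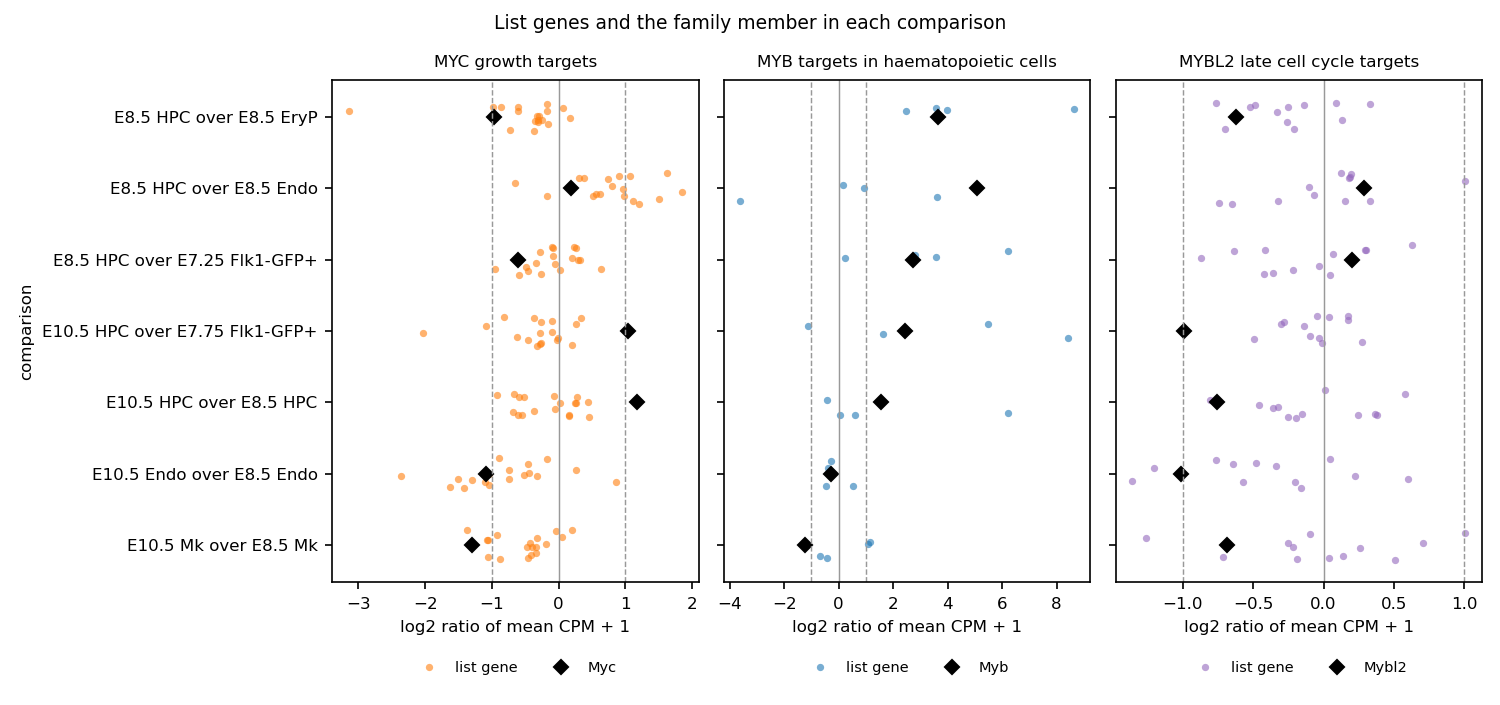
Log2 ratio of mean CPM + 1 of each list gene (dots) and of the family member (diamond) in the 7 comparisons, for MYC growth targets, MYB targets and MYBL2 late cell cycle targets; dashed lines mark 2-fold. Most MYC targets lie left of 0 with *Myc* in E10.5 over E8.5 Endo (median -0.82) and around 0 in E10.5 over E8.5 HPC (median -0.06), where *Myc* lies at 1.18.

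Immediate early genes, which tissue dissociation can induce, had a higher summed level at E10.5 than at E8.5 in HPC, where *Myc* was higher, and in Endo and Mk, where it was lower. Of 9 listed, 7 were tested. Between E8.5 and E10.5 HPC, *Egr1* (28.9 to 97.3 CPM), *Jun* (18.3 to 46.6 CPM) and *Zfp36* (13.6 to 34.3 CPM) were higher and *Dusp1* lower (37.8 to 14.8 CPM). Of all genes, 8.22% were called higher and 12.6% lower there. The summed list had a median of 92.0 CPM in E8.5 HPC and 227 in E10.5 HPC. It was 282 and 334 CPM in Endo and 183 and 482 CPM in Mk. In Endo 4 of 7 genes were higher and 1 of 7 lower, where 17.2% of all genes were called in each direction. In Mk 2 of 7 were higher and 1 of 7 lower, near the 15.2% and 12.6% of all genes. From E7.25 cells to E8.5 HPC 4 of 7 genes were higher while *Myc* was lower (log2 ratio -0.61), and from E7.75 cells to E10.5 HPC 3 of 7. Of all genes, 14.8% and 14.2% were called higher in these 2 comparisons. E7.25 and E7.75 cells were dissociated with trypsin and the later ones with collagenase and dispase. The part of this list in the *Myc* values was not tested. *Fos* and *Zfp36* were higher in E8.5 HPC than EryP, where 21.8% of all genes were. *Atf3* and *Dusp1* were lower in E8.5 HPC than Endo, where 15.8% of all genes were.

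*Mybl2* was found in most cells of the early and HPC populations. It was found in 81.0% of E7.25, 86.4% of E7.75, 83.6% of E8.25 HPC, 79.8% of E8.5 HPC, 82.6% of E9.5 HPC and 66.7% of E10.5 HPC cells, with means of 23.8, 32.4, 29.7, 27.5, 41.6 and 15.8 CPM. EryP at E8.5 did not lack it (80.3%, 68.7 to 89.1%, mean 42.9 CPM), unlike *Myb*. Between E9.5 and E10.5 HPC, of the same gate and flow cell, its mean was more than 2-fold lower at E10.5 (log2 ratio -1.34). Of the tested genes, 4.11% had a lower ratio there, and the share past 2-fold was not counted. The intervals of the *Mybl2* shares overlap (68.6 to 92.2% and 55.7 to 76.4%), and the median depths were 3082738 and 1609583 counts. None of the 5 HPC comparisons in which gene lists were read reached 2-fold for *Mybl2*. The nearest was E10.5 HPC over E7.75 (-0.99). The share was lower at E10.5 than at E8.5 in Mk (46.6% against 83.8%) and in Endo (44.3% against 59.5%), with means of 23.4 against 38.4 CPM and 10.6 against 22.4 CPM. In macrophages the mean of 216 CPM came from 1 cell at 5045 CPM. It was 14.5 CPM without that cell, and the median was 0.161 CPM.

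The partners and targets of MYBL2 gave few calls in HPC and more in Endo and Mk, at shares near or below those of all genes. In Endo 2 of 11 partners were called in each direction and 2 of 12 targets lower, against 17.2% of all genes each way. In Mk 1 of 11 partners and 1 of 12 targets were called in each direction, against 15.2% of all genes higher and 12.6% lower. In the HPC comparisons 8.22 to 21.8% of all genes were called higher and 6.96 to 15.8% lower. Of the 11 genes of the MuvB core and DREAM complex, none was called between E8.5 HPC and EryP or Endo, or between HPC stages. *Rbl2*, the gene of the pocket protein p130 of quiescent cells, was higher in E8.5 HPC than at E7.25 (9.13 against 2.15 CPM), in E10.5 HPC than at E7.75 (12.8 against 1.93 CPM) and in E10.5 than E8.5 Mk (14.2 against 2.56 CPM), where *Lin54*, a DNA-binding MuvB gene, was lower (7.74 against 40.9 CPM). In Endo from E8.5 to E10.5 the MuvB genes *Lin37* (6.42 to 27.6 CPM) and *Lin52* (8.68 to 22.4 CPM) were higher and *Lin9* (31.8 to 15.0 CPM) and the E2F partner gene *Tfdp1* (129.4 to 54.6 CPM) lower. Of the 12 late cell cycle targets, *Cdc20*, an activator of the anaphase-promoting complex, was higher in E8.5 HPC than Endo (139.1 against 68.7 CPM). From E8.5 to E10.5 Endo the spindle checkpoint kinase gene *Bub1* was lower (274 to 106.1 CPM). So was the kinetochore motor gene *Cenpe* (455 to 196 CPM). *Mybl2* was lower there as well, but 17.2% of all genes were, so the shared direction does not single out *Mybl2*. In Mk *Bub1* was lower and *Ube2c*, a ubiquitin-conjugating enzyme gene of mitotic exit, higher. In the other 4 comparisons no late target was called.

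The 8 tested genes of S phase gave few calls, all of them lower in the first-named population. Over the comparisons, 6.96 to 17.2% of all genes were called lower. *Ccne1*, which encodes cyclin E1, was lower in E8.5 HPC than EryP (25.5 against 109.6 CPM) and E7.25 cells (70.4 CPM), and in E10.5 HPC than E7.75 cells (27.4 against 66.4 CPM). *Ccne2*, for cyclin E2, was lower in E10.5 than E8.5 HPC (107.9 against 230.6 CPM) and in E10.5 than E8.5 Endo (36.9 against 178 CPM), where the replicative helicase gene *Mcm4* was lower too (218 against 490 CPM). Both cyclin E genes were lower in E10.5 than E8.5 Mk. Of all genes, 12.6% were called lower in that Mk comparison and 17.2% in the Endo one.

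*Mybl1* and *Mycl* had their highest shares at E7.25, and *Mybl1* was also present in endothelium. *Mycl* was found in 57.8% (49.4 to 65.9%) of E7.25 cells at a mean of 13.2 CPM and in 18.6% (12.5 to 26.0%) of E7.75 cells at 2.83 CPM. In HPCs at most 6.52% of cells held it, with means no higher than 0.858 CPM. It was at 0 in all E10.5 Mk, Mac and Endo and in all E8.5 Endo, of which the 79 E8.5 Endo allow a share of up to 4.56%. *Mybl1* was found in 59.2% (50.8 to 67.2%) of E7.25 and 39.3% (31.1 to 47.9%) of E7.75 cells, with means of 7.17 and 14.8 CPM. The second of these means is 5.42 CPM without a single cell at 1323 CPM. In E8.5 Endo its share of 35.4% (25.0 to 47.0%) and mean of 5.92 CPM were close to these E7.75 values. It was also found in E10.5 Endo (19.7%) and in E8.25 HPC (26.0%), and in no more than 16.2% of any other population of 25 cells or more. Unlike *Myb*, neither gene divided with the haemato-endothelial genes at E7.25: *Mybl1* was in 59.3% and 59.0%, and *Mycl* in 54.7% and 62.3%, of cells with and without them.

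The genes whose mean levels over the 12 populations were most like each tested member were named by Pearson correlation of log2(mean CPM + 1) among 10844 other genes. The 12 points share 2 flow cells and differ in depth, and the coefficients are descriptions. *Myb* was most like *Bri3bp* and *Pak1* (both 0.88) and *Sephs2* (0.88). *Myc* was most like *Ikzf1* (0.87), which encodes the lymphoid and erythroid regulator Ikaros, *Smyd5* (0.87) and *Emg1* (0.86), a gene of ribosome biogenesis. *Mycn* was most like *Ak1* (0.93), *Zfp202* (0.91) and *Slx4ip* (0.90). *Mybl2* was most like *Dus1l* (0.97), *Cpsf1* (0.96) and *Thumpd1* (0.95), which were 0.89, 0.85 and 0.86 over the 11 populations without E10.5 Mac, whose *Mybl2* mean is set by 1 cell. Between members the coefficient was 0.60 for *Myb* and *Myc*, 0.14 for *Myb* and *Mycn*, -0.19 for *Myc* and *Mycn* and -0.61 for *Mybl2* and *Mycn*, the last being -0.10 without E10.5 Mac.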

How the data were processed

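Single cells of 13 sorted yolk sac populations were captured on the Fluidigm C1 system, made into Nextera XT libraries and read as paired ends. The deposited counts were made by the authors, by alignment to GRCm38 (Ensembl 84) in Rsubread, then featureCounts; whether strand was used is not given in the sources used here. They kept 926 of 1073 cells and 15967 genes with scater. The signal values are the authors' CPM with scran size factors, which within a cell are the counts times 1 factor and sum to between 699615 and 4176737 per cell (median 988403).

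From these files were computed the shares of cells with 1 count or more, mean CPM per population, and log2 ratios of means with a pseudocount of 1. Genes with a mean of at least 5 CPM over the 12 populations of 25 cells or more entered counts past 2-fold; E10.5 EryP has 3 cells and was left out. Cells of a population were sequenced in 1 lane, or in 2 at E7.25 and E7.75. No doublet caller was run, and no test was made. Depth per cell was 483830 to 5943204 counts, so a level near 1 CPM rests on a few reads. Gene positions and exon lengths came from GENCODE M21 and promoters from RefSeq. Both-sex cells had 5 or more counts of *Xist* and of Y-linked genes together.

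The family members and the gene lists were chosen with earlier results of these data known. Named were all members, of each list up to 4 genes per comparison past 2-fold with the largest ratio, and for each tested member the 3 genes most like it. Alternatives were 10 counts for detection, a depth thinned to 800000, all captured cells, and cells of both sexes left out. Others were CPM of a cell's own total, a pseudocount of 10, means of log2 values, and no minimum on levels. A 4-fold call, Spearman correlation, and single lanes and flow cells were also used. Leaving out the highest cell, or E10.5 Mac, was added after the values were seen. The method was tested on simulated data. Computations ran in Python 3.11.15 (scipy 1.17.1, numpy 2.4.6, pandas 2.3.3), and plots in matplotlib 3.10.9.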

Additional observations from a re-analysis of the deposited data

Results flagged for a closer look

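The difference between E10.5 and E8.5 went in opposite directions in HPC and in the other lineages for *Myb* and for *Myc*. On the log2 scale of mean CPM + 1, *Myb* differed by 1.57 in HPC, -0.28 in Endo and -1.21 in Mk. *Myc* differed by 1.18 in HPC, -1.09 in Endo and -1.30 in Mk. Each lineage is 1 sample at each stage, so the difference between lineages was not tested. All E8.5 and all E10.5 libraries lay on different flow cells, which the 3 lineages share, and the HPC gate changed from CDH5+ to CDH5- CD45+. The *Myb* value in Endo rests on 1 positive cell of 79 at E8.5 and 0 of 61 at E10.5.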

How the results depend on the processing

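No paired analysis was possible because the numbers in the sample names only index cells. Of 312 recomputed detection shares, 247 stayed within the first interval and 65 moved; at 10 counts or more *Myb* was in 71.9% of E8.5 HPC and 4.55% of E8.5 EryP. The *Myb* ratio of HPC over EryP, 3.64, was 2.02 with a pseudocount of 10 and 4.84 without cells of both sexes. Of 83 recomputed *Myc* to *Mycn* ratios over all 13 populations, 63 stayed within 1.5-fold. As a mean of log2 values the ratio was 1.97 at E7.75, 4.71 in E9.5 HPC, 4.50 in E10.5 HPC, 4.52 in E10.5 Mac and 0.54 in E10.5 Endo; with a pseudocount of 10 it was 3.98 in E8.5 EryP and 3.64 in E10.5 Mac; over all captured cells it was 7.79 in E10.5 Mac, and without cells of both sexes 3.34 in E8.5 Endo. In E10.5 Mk it changed sign, to 0.56 with CPM of a cell's own total, 0.21 as a mean of log2 values, 0.56 over all captured cells, 0.41 when thinned and 1.20 without the highest *Mycn* cell. Leaving out 1 lane gave 1.57 to 1.59 at E7.25 and 0.63 to 2.01 at E7.75. The difference of the ratio between *Flk1*-GFP+ cells and late HPC, 1.84, was 2.64 as a mean of log2 values; within 1 flow cell the early steps gave 0.0074 and 0.012 and the late ones 2.14 and 2.00. Of 77 list genes, those past 4-fold rather than 2-fold were 4 for E8.5 HPC over Endo (2-fold 13), 3 over E7.25 (11), 6 for E10.5 HPC over E7.75 (12), 1 between HPC stages (6), 4 in Endo (27) and 6 in Mk (23); with a pseudocount of 10 they were 4 over E7.25 and 13 in Mk, and with no minimum on levels 10 between HPC stages. Of the 3 genes most like each member, Spearman correlation kept 1 for *Myb*, 0 for *Mybl2*, 0 for *Myc* and 1 for *Mycn*, and CPM of the cell's own total kept 1 for *Myc* and 1 for *Mycn*. Causes were not tested beyond the settings themselves.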

Other observations

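Cells that did not pass the authors' filter enter no comparison, and their values are CPM of the cell's own total. Of 12 such E9.5 HPC, 12 held *Myb*, and of 10 E7.75 cells 8 did. Among 18 E8.5 EryP, 1 held *Myb*, 8 held *Myc* and 0 held *Mycn*. Of 22 E10.5 EryP, 11 held *Myc*, at most at 293 CPM, and 1 held *Mybl2*.

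The cell with the highest level of a member was read in full in 4 populations. The E10.5 Mac with *Mybl2* at 5045 CPM held 5760 counts of it among 1625946. The E9.5 HPC with *Myb* at 3002 CPM held 4304 among 1631885, the E7.75 cell with *Mybl1* at 1323 CPM held 1373 among 1330604, and the E10.5 Mk with *Mycn* at 2323 CPM held 1061 among 1260932.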
